A study of Mus musculus with 4 samples.

Results

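The Notch pathway genes described here are 9: the receptors Notch1, Notch2 and Notch4, the secretase subunit Ncstn, the nuclear effector Rbpj, its coactivator Maml1, the modulators Dtx1 and Dtx4, and the target Hes1. They were taken as every probe set, a group of short oligonucleotides that reads 1 transcript region, whose single gene symbol in the platform annotation is 1 of these names. This gave 20 probe sets of the 45037 on the array that are not controls. Of the 20, 16 passed the filter on dim signals (a mean signal in the upper 50% of all probe sets) and were tested, and each of the 9 genes had at least 1 of them. RNA of CD8α+ and of CD8α− dendritic cells (SPDCs) from the spleen of C57BL/6 mice was hybridized to the Mouse Genome 430 2.0 array of Affymetrix, 2 arrays for each population. The labels name no treatment, genotype, age or sex, and do not say how the cells were isolated or how many animals gave the RNA of each array. Any p-value below thus reflects spread among 4 samples whose replication may be only technical.

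Notch receptors are cleaved when a ligand on a neighbouring cell binds them. The γ-secretase complex then releases the intracellular domain, which enters the nucleus and joins the DNA-binding protein RBPJ and a Mastermind coactivator to switch on targets such as Hes1, Nrarp and Dtx1. RBPJ without Notch recruits corepressors to the same sites. In the mouse spleen, Notch2 and RBPJ are known to be needed for the homeostasis of CD8α− dendritic cells, in particular for a subset that carries the adhesion molecule ESAM, and Notch2 also directs marginal zone B cells.

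The upstream sequences of Rbpj, Dtx1 and Nrarp are shown because Rbpj and Dtx1 had the largest difference in each direction among the representing probe sets of the members, and Nrarp is the Notch target with the largest difference among the other pathway genes. Each is the 250 bases before the annotated start in RefSeq (build GRCm38.p6), in the direction of the gene. They lie at chr5:53590096-53590345 on the plus strand for Rbpj, chr5:120711670-120711919 on the minus strand for Dtx1, and chr2:25180508-25180757 on the plus strand for Nrarp. Capitals mark matches on either strand to TGGGAA, the core of the RBPJ site (TTCCCA when read on the other strand), and to CACGTG, a site that HES proteins can bind.
Rbpj: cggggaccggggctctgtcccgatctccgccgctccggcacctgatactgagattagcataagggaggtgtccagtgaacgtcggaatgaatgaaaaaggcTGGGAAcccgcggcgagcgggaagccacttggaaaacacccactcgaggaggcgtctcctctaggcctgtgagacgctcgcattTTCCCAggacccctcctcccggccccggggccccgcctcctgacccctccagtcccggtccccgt
Dtx1: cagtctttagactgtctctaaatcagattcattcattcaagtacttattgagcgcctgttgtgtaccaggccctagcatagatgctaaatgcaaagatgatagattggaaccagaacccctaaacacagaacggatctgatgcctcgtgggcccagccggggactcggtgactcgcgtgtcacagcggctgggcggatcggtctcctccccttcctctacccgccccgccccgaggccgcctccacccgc
Nrarp: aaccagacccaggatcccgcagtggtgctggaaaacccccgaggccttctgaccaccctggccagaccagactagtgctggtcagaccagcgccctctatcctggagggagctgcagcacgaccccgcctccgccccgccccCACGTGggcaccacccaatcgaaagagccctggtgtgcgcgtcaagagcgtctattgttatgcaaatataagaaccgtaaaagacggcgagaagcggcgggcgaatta
The Rbpj window holds 2 matches to TGGGAA, 149 and 65 bases before the start, in opposite orientation, and no match to CACGTG. The Nrarp window holds 1 CACGTG and no TGGGAA, and the Dtx1 window holds neither. Promoters were found in the table for 7 of the 9 members, in 8 windows since Rbpj has an alternative start. TGGGAA stood in 2 of the 8, both of Rbpj and sharing 1 of the matches, against 21.6% of all 32851 upstream windows of the same length, and 2.8% of all windows held 2 or more. CACGTG stood in 0 of the 8 against 6.0% of all windows, and CACNAG, a further HES site, in 3 of the 8 against 36.7%, with no overlap with TGGGAA in the Rbpj windows, which hold none. A match is a run of letters and not a shown binding site, and a window without one says nothing of the factor.

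Values below are signals after quantile normalization across the 4 arrays unless called deposited, and are given for CD8α+ replicates 1 and 2 and then CD8α− replicates 1 and 2. A difference is the log2 signal in CD8α+ minus that in CD8α− cells, ± its standard error in the limma fit over 22519 probe sets, with n = 2 arrays per group, and brighter or dimmer names its direction only. Background is the highest Bacillus control on each array, at 30.8, 21.8, 28.3 and 34.5 in the same order. The deposited signals differed in scale between arrays, with medians from 17.4 to 35.1, and the median difference of all tested probe sets on that scale was 0.63. CD8α− replicate 2 stood apart: its Gapdh control read 10.7 times more signal at the 3′ than at the 5′ end against 1.53 to 2.02 times on the other arrays, while its Actb control went the other way, at 0.759 against 1.62 to 1.69. It correlated at r = 0.835 with CD8α− replicate 1 across tested probe sets, against r = 0.955 within the CD8α+ pair. CD8α− replicate 1 correlated more closely with CD8α+ replicates 1 and 2, at r = 0.861 and 0.871, than with its own replicate. Most markers followed the labels: 8 of 9 measured type 1 (cDC1) markers, Cd8a among them, lay higher on both CD8α+ arrays. The remaining cDC1 marker, Batf3, lay lower on both, at 114 and 139 against 145 and 158 (-0.27 ± 0.32). Of 9 type 2 (cDC2) markers, 8 lay lower on both CD8α+ arrays. The cDC2 markers Itgam and Mgl2 were not above background on any array.

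None of the 16 tested probe sets passed an adjusted p of 0.05 (limma, Benjamini-Hochberg over all 22519 probe sets, the lowest of the members at 0.159), and 0% of all probe sets did, the lowest adjusted p of all being 0.115. At an unadjusted p under 0.05, 2 of the 16 were brighter in CD8α+ cells, where 7.75% of all tested probe sets were, and 2 were dimmer, where 7.79% were. Of those called, Dtx4 1455711_at and Hes1 passed the filter only through the group in which they were brighter. Both arrays of a group stood on the same side of both of the other in 4 brighter and 5 dimmer probe sets, against 26.1% and 26.2% of all tested probe sets (52.3% in either direction). The median difference of the 16 was 0.01, and that of all tested probe sets also 0.01. An exact permutation test of 2 arrays against 2 cannot give a two-sided p below 0.333 and was not used.

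**Figure D1:**
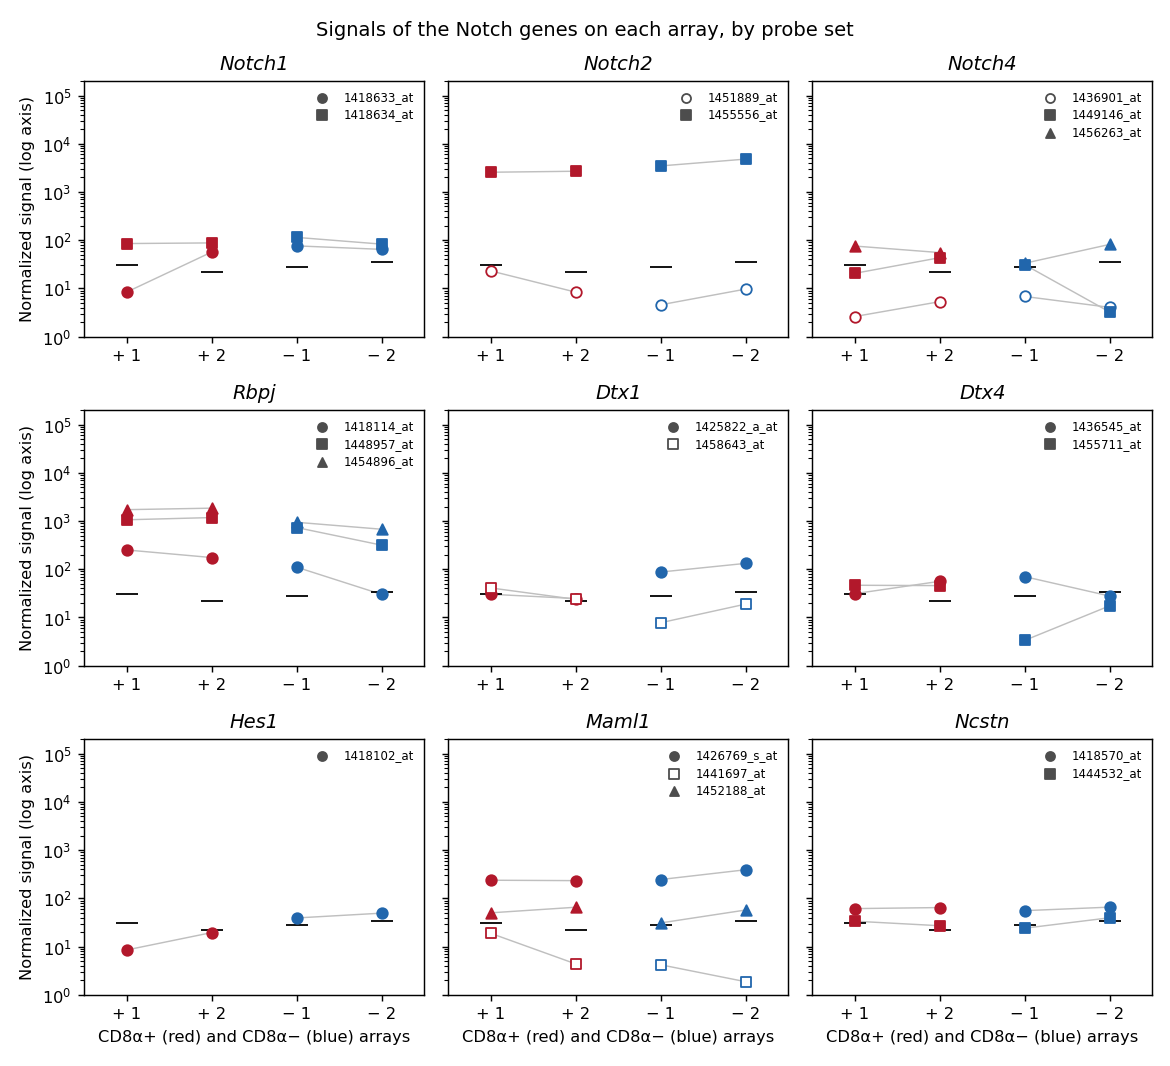
Quantile-normalized signal (log axis) of each of the 20 probe sets on the 4 arrays, 1 panel per gene. Red points are CD8α+ and blue CD8α− arrays, shapes are probe sets, open symbols were too dim to be tested, lines join replicates and black dashes mark the background of each array. The 3 Rbpj probe sets lie higher on the red arrays and Hes1 and the tested Dtx1 probe set lie lower.

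Notch2 was bright on all 4 arrays on probe set 1455556_at, with signals of 2566 and 2691 in CD8α+ and 3472 and 4811 in CD8α− cells. Both CD8α− arrays were the higher ones, and the difference of -0.64 ± 0.34 had a 95% interval from -1.55 to 0.27 and an adjusted p of 0.428 (limma). The deposited Notch2 signals, from 3315 to 3680, spanned only a narrow range, and the groups overlapped there. The difference on the deposited scale was -0.03, where the median of all probe sets lay at 0.63. Relative to the median of all probe sets, the sign of the Notch2 difference held in all 13 alternatives. Without CD8α− replicate 2 the normalized difference was -0.38, and without replicate 1 it was -0.89. The other Notch2 probe set, 1451889_at, was below background on all 4 arrays, from 4.58 to 23.0.

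Notch1, the receptor that also governs T cell fate, read 85.1 and 87.8 in CD8α+ and 114 and 82.7 in CD8α− cells on 1418634_at. The groups overlapped, with a difference of -0.17 ± 0.34 (95% interval -1.08 to 0.74), which turned to 0.53 on the deposited scale and was -0.42 without CD8α− replicate 2. On 1418633_at the signals were 8.41 and 56.9 against 76.2 and 64.5, a difference of -1.68 ± 0.97 (limma, adjusted p = 0.452). There the CD8α+ arrays stood far apart, only replicate 2 being above background, and without CD8α+ replicate 1 the difference was -0.29, without replicate 2 -2.97.

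Notch4, a receptor best known from endothelium, was above background on all 4 arrays on 1 of its 3 probe sets. That one, 1456263_at, read 75.6 and 55.3 in CD8α+ and 33.3 and 81.9 in CD8α− cells, with a difference of 0.31 ± 0.55 that turned to -0.36 without CD8α− replicate 1 and was 1.03 without replicate 2. Probe set 1449146_at read 20.5 and 43.4 against 30.8 and 3.21, with 1 array of each group above background and a difference of 1.02 ± 0.86 that was -0.03 without CD8α− replicate 2. On 1436901_at all signals were under the floor of 6.99. No endothelial marker of 7 was above background on all arrays, and Kdr, Tek and Egfl7 were above it on none, with summed signals of 94.4 to 96.3 in CD8α+ and 132 to 166 in CD8α− cells.

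Nicastrin (Ncstn), the substrate-binding subunit of γ-secretase, was above background on all 4 arrays on 1 of its 2 probe sets, and its differences were the smallest of the tested member probe sets in size. Probe set 1418570_at read 61.3 and 64.4 in CD8α+ and 55.6 and 65.8 in CD8α− cells, a difference of 0.06 ± 0.31. Its 95% interval, from -0.78 to 0.89, leaves room for a difference short of 2-fold in either direction. On 1444532_at the signals were 33.6 and 27.1 against 24.1 and 39.7, with a difference of -0.04 ± 0.40, which was 0.33 without CD8α− replicate 2. Both small differences changed sign under some scalings.

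Rbpj, the DNA-binding effector of the pathway, was brighter in CD8α+ cells on each of its 3 probe sets. On the brightest, 1454896_at, signals were 1724 and 1852 in CD8α+ against 942 and 676 in CD8α− cells, with no overlap. The difference was 1.16 ± 0.34, a fold of 2.24, past an unadjusted p of 0.05 but with an adjusted p of 0.258 (limma). The deposited signals there were 2292 and 2510 against 1013 and 318, in the same order. Probe set 1448957_at read 1063 and 1182 against 732 and 316, a difference of 1.22 ± 0.51 (limma, adjusted p = 0.353). Probe set 1418114_at read 251 and 175 against 110 and 30.0, a difference of 1.87 ± 0.72 (limma, adjusted p = 0.328), where CD8α− replicate 2 was below background. On all 3 that array was the dimmest of the 4, and without it the differences were 0.88, 0.60 and 0.97 in the order above. The unadjusted call of 1454896_at was lost without CD8α+ replicate 1 (1.23), without CD8α+ replicate 2 (1.14) and with the replicate number as a block. Across the 13 alternative settings all 3 probe sets stayed brighter in CD8α+ cells. Among 10532 tested genes, the representing probe set of Rbpj lay at the 90.2 percentile of differences.

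Maml1, a Mastermind coactivator, gave probe sets of opposite sign, neither called. Probe set 1426769_s_at, whose suffix marks probes shared by several transcripts, read 238 and 233 in CD8α+ and 246 and 393 in CD8α− cells, a difference of -0.40 ± 0.38. It turned to 0.58 on the deposited scale and was -0.064 without CD8α− replicate 2. Without CD8α− replicate 1 it was -0.74 and past an unadjusted p of 0.05. Probe set 1452188_at read 50.1 and 65.5 against 31.0 and 57.4, a difference of 0.44 ± 0.44 that was 0.95 without CD8α− replicate 2, and 1441697_at was below background throughout, from 1.86 to 18.8.

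**Figure D2:**
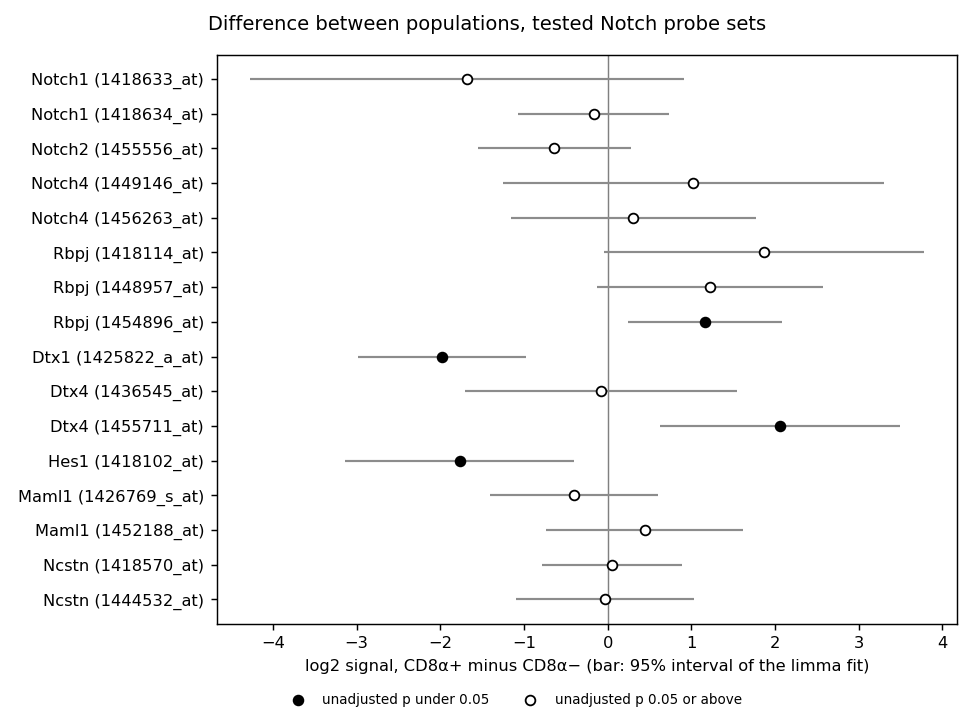
Difference in log2 signal, CD8α+ minus CD8α−, of the 16 tested probe sets of the Notch genes, with the 95% interval of the limma fit as bars. Filled points had an unadjusted p under 0.05: Rbpj (1.16) and Dtx4 (2.06) on 1 probe set each to the right, Dtx1 (-1.98) and Hes1 (-1.77) to the left.

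Dtx1, Deltex 1, encodes a ubiquitin ligase that modulates Notch and is itself a Notch target in lymphocytes. On 1425822_a_at it read 30.3 and 24.7 in CD8α+ against 87.7 and 133 in CD8α− cells. Both CD8α− arrays lay well above both CD8α+ arrays, of which only replicate 2 was above background. The difference was -1.98 ± 0.38 past an unadjusted p of 0.05, with an adjusted p of 0.159 (limma), at the 2.73 percentile of all genes. The deposited signals, 33.0 and 22.9 against 99.3 and 67.7, had the same order. The direction held in all 12 alternatives that gave a value, from -2.40 to -1.52. Without CD8α− replicate 2 the difference was -1.80, and without CD8α+ replicate 2 the unadjusted call was lost (-1.67). A second Dtx1 probe set, 1458643_at, too dim to be tested, ran the other way, with 41.0 and 23.8 against 7.79 and 19.0, where no CD8α− array was above background.

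The genes whose levels over the 4 arrays lay closest to those of Dtx1 were Ctxn2, Ednrb, an endothelin receptor, and Osm, the cytokine oncostatin M. Their root mean square distances, in log2 units after centring each gene, were 0.04 for all 3 when rounded, and their differences were -2.00, -1.94 and -2.00. With 4 arrays such likeness is a description and rests mostly on the group difference that they share.

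Dtx4, another Deltex ligase, gave discordant probe sets. On 1455711_at it read 46.6 and 45.8 in CD8α+ and 3.36 and 17.5 in CD8α− cells, where no array was above background, a gap of at least 1.48-fold. That bound sets the mean of the CD8α+ arrays against the background, or the own signal if higher, of the CD8α− arrays. The fitted difference was 2.06 ± 0.54 (limma, adjusted p = 0.226), and its size is not exact since CD8α− replicate 1 lay under the floor. This probe set reached the filter of 23.0 only through the CD8α+ arrays, so being tested depended on this direction. On 1436545_at the signals were 31.1 and 56.3 against 70.2 and 27.8, with overlapping groups and a difference of -0.08 ± 0.61, whose interval runs from -1.70 to 1.55. Without CD8α− replicate 2 it was -0.80, and without replicate 1 it was 0.63. Scaling the arrays to a common trimmed mean moved 1455711_at to 1.57, which ended its unadjusted call, and without either CD8α+ array it was too dim to be tested.

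Hes1, a transcriptional repressor and the textbook Notch target, was read by 1 probe set, at 8.51 and 19.5 in CD8α+ and 39.3 and 49.4 in CD8α− cells. Neither CD8α+ array was above background and both CD8α− arrays were, a gap of at least 1.70-fold. The fitted difference was -1.77 ± 0.51 (limma, adjusted p = 0.253). The deposited signals, 9.6 and 18 against 52.2 and 31.0, had the same order. Hes1 was dimmer in CD8α+ cells in all 11 alternatives that gave a value, from -2.42 to -1.03. Its mean signal reached the filter of 23.0 only through the CD8α− arrays, as both CD8α+ arrays lay under it. Being tested thus depended on this direction, and the number of alternatives is no separate support for it. The unadjusted call was lost with an intensity trend, with no filter, without CD8α+ replicate 1 (-1.15) and with CD8α− replicate 1 left out (-2.00). Leaving out CD8α− replicate 2 made it too dim to be tested. The genes closest to Hes1 over the 4 arrays, by the same distance, were Cyp2j6 (0.03), Pou6f1 (0.03) and 4931408D14Rik (0.06), each with at least 1 CD8α+ array not above background.

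In bulk samples such as these, fewer cells of a type and less RNA per cell cannot be told apart. Some markers of other spleen cells also differed between the groups. Of all tested genes, 28.3% stood lower and 25.6% higher on both CD8α+ arrays. Of 8 B cell markers measured, 4 stood lower on both CD8α+ arrays, among them Ighm (-1.38 ± 0.33) and Blk (-1.90 ± 0.33), 1 stood higher (Ms4a1, 1.45 ± 0.31) and Pax5 was above background on no array. Their summed signals were 1133 to 1205 in CD8α+ and 2296 to 2956 in CD8α− cells. Cr2, which marginal zone B cells carry, was above background only on CD8α+ replicate 1 (45.2), and on neither CD8α− array. Of 7 natural killer cell markers, 6 stood lower on both CD8α+ arrays, with sums of 384 to 556 against 1367 to 2360. The 6 T cell markers summed to 501 to 702 against 522 to 536, and the 8 macrophage markers, C1qc above background on no array, to 616 to 718 against 862 to 1262. Of these 8, 3 stood lower on both CD8α+ arrays, among them Adgre1 (-2.48 ± 0.32) and Spic (-1.51 ± 0.38), and Vcam1 stood higher (2.48 ± 0.56). Summed signals of 6 monocyte and neutrophil markers were 6667 to 7297 against 10853 to 13806, and of 6 plasmacytoid dendritic cell markers 987 to 1118 against 1550 to 2239, with Tcf4 and Bst2 lower and Ccr9 higher on both CD8α+ arrays. For comparison, sums of the cDC1 markers were 8883 to 9208 against 1230 to 1359. The part of the other spleen cells in the Notch gene values was not tested.

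Other genes of the pathway were taken from a list of 66, ordered by role. Of these, 61 were on the array under a single symbol and 45 passed the filter, each read by its brightest tested probe set. At an unadjusted p under 0.05, 6 were brighter in CD8α+ cells and 2 dimmer, against 7.13% and 8.82% of all genes tested, and 37 were not called. None passed the adjusted threshold. Groups stood apart in 16 brighter and 10 dimmer genes, against 25.6% and 28.3% of all genes. Their median difference was 0.28, beside -0.02 for all genes.

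Among the ligands, 1 of 5 tested was called and 2 of the 7 listed, Dlk1 and Dlk2, were below background. Jag2, a Jagged ligand, read 187 and 188 in CD8α+ and 46.0 and 38.3 in CD8α− cells. On the brightest tested probe set of each gene, it had the smallest p of the pathway, at a difference of 2.16 ± 0.32 and a fold of 4.47 (limma, adjusted p = 0.127). The deposited signals were 251 and 268 against 58.8 and 25.6. Its second probe set gave 74.2 and 101 against 21.8 and 53.0, a difference of 1.35 ± 0.54, and the first kept its unadjusted call in all 13 alternatives, from 1.81 to 2.74. Jag1, the other Jagged ligand, read 158 and 163 against 189 and 213, a difference of -0.32 ± 0.31 that turned to 0.62 on the deposited scale. Dll1, Dll3 and Dll4, the Delta ligands, had signals between 9.70 and 56.9 on their brightest probe sets, close to background.

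Nrarp, a target that feeds back to destabilize the Notch complex, read 26.0 and 35.9 in CD8α+ and 137 and 157 in CD8α− cells. The difference of -2.26 ± 0.35 was the most negative of the pathway genes tested (limma, adjusted p = 0.133), with 1 of 2 CD8α+ arrays above background. Its unadjusted call held in all 13 alternatives, from -2.57 to -1.76. A second Nrarp probe set read 1.46 and 45.4 against 38.7 and 57.8, a difference of -1.41 ± 0.97, with CD8α+ replicate 2 between the CD8α− arrays. In the rest of the turnover group of 11 tested genes, Numb, an inhibitor that sends Notch to degradation, was brighter in CD8α+ cells (74.4 and 80.3 against 26.3 and 26.3, 1.55 ± 0.31, at least 2.47-fold). Its adjusted p was 0.168 (limma), and its unadjusted call was lost without CD8α+ replicate 1 or 2 (1.54 and 1.36). Neurl1b, a Neuralized ligase that acts on ligands, read 68.1 and 118 against 17.2 and 34.9 (1.87 ± 0.53, limma adjusted p = 0.246), with the call lost without CD8α+ replicate 2 (1.36) and without CD8α− replicate 1 (1.45). Dtx3l and the ubiquitin ligase subunit Fbxw7 had differences of -0.67 ± 0.31 and -0.70 ± 0.33, which turned to 0.29 and 0.30 on the deposited scale. A second Dtx3l probe set ran the other way, at 0.94 ± 0.56 with overlapping groups. The ligase Itch gave discordant probe sets, at 0.36 ± 0.31 on the brightest and from -1.45 to 2.69 on the dimmer ones. The highest of these had a smaller p than Jag2, with both CD8α− arrays under the floor.

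Of 5 receptor glycosylation genes, Pofut1, the fucosyltransferase that Notch needs for ligand binding, was called (74.2 and 81.8 against 34.7 and 43.7, a difference of 1.0 ± 0.33, limma adjusted p = 0.280). That call was lost on the common trimmed mean (0.60) and without CD8α+ replicate 1 or 2 (1.01 and 0.83). The glucosyltransferase Poglut1 (0.58 ± 0.31) and the Fringe Lfng (-0.25 ± 0.31) were not called, and Lfng turned to 0.77 on the deposited scale. Of 3 sheddases none was called: Adam10, which makes the cut before γ-secretase, read 1327 and 1222 against 1082 and 1333 (0.08 ± 0.32), and Furin, which processes the receptor on its way to the surface, -0.42 ± 0.37, or -0.10 without CD8α− replicate 2. Of 4 further γ-secretase subunits none was called. Aph1a had the widest gap (317 and 266 against 154 and 23.5, 2.27 ± 0.96, limma adjusted p = 0.355), which was 0.94 without CD8α− replicate 2 and 3.76 without replicate 1, while its other probe sets read 0.77 and 0.09, and Psenen read -0.65 ± 0.46, or -0.15 without CD8α− replicate 2.

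Among 5 coactivators, the acetyltransferase Kat2b was brighter in CD8α+ cells (791 and 708 against 319 and 451, 0.98 ± 0.35, limma adjusted p = 0.305). Crebbp, another acetyltransferase, was at -0.02 ± 0.35 on its brightest probe set and between -0.16 and 1.98 on the others, where the highest rests on CD8α− arrays below background. Among 9 corepressors tested, Ctbp2 was brighter (206 and 215 against 116 and 82.4, 1.11 ± 0.34, limma adjusted p = 0.268) and the Groucho family member Tle3 dimmer (1062 and 1164 against 2136 and 2605, -1.08 ± 0.32, adjusted p = 0.258), while Ctbp1 read 0.66 ± 0.38, or 0.33 without CD8α− replicate 2. The other Ctbp2 probe set overlapped between the groups, at 0.30 ± 0.41. A second bright Tle3 probe set gave -1.15 ± 0.31, and the 2 dim ones -0.76 and 0.03. The unadjusted calls of Kat2b, Ctbp2 and Tle3 were each lost without CD8α+ replicate 1 (0.90, 1.11 and -1.03) and without replicate 2 (1.07, 1.04 and -1.18). The block ended all 3 calls too. On the deposited scale Tle3 read -0.25 and was not called, where the median of all probe sets lay at 0.63, and median centring likewise ended its call (-0.24).

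Of 12 further targets only Hes6 (0.07 ± 0.31) and Il2ra (-0.11 ± 0.35) were bright enough to be tested. Esam, which marks the Notch2-dependent CD8α− subset, read 3.89 and 25.1 in CD8α+ and 44.5 and 6.77 in CD8α− cells, with 1 array of each group above background. Hey1, a relative of Hes1 and named after its values were seen, ran opposite to it at 36.2 and 43.8 against 3.89 and 3.21, at least 1.27-fold brighter in CD8α+ cells. Notch3, the remaining receptor, was near background on its brightest probe set (35.3 and 32.1 against 45.1 and 29.5, -0.11 ± 0.37). Its other probe set read 12.8 and 24.8 against 50.5 and 51.9, a difference of -1.52 ± 0.44 (limma, adjusted p = 0.252).

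**Figure D3:**
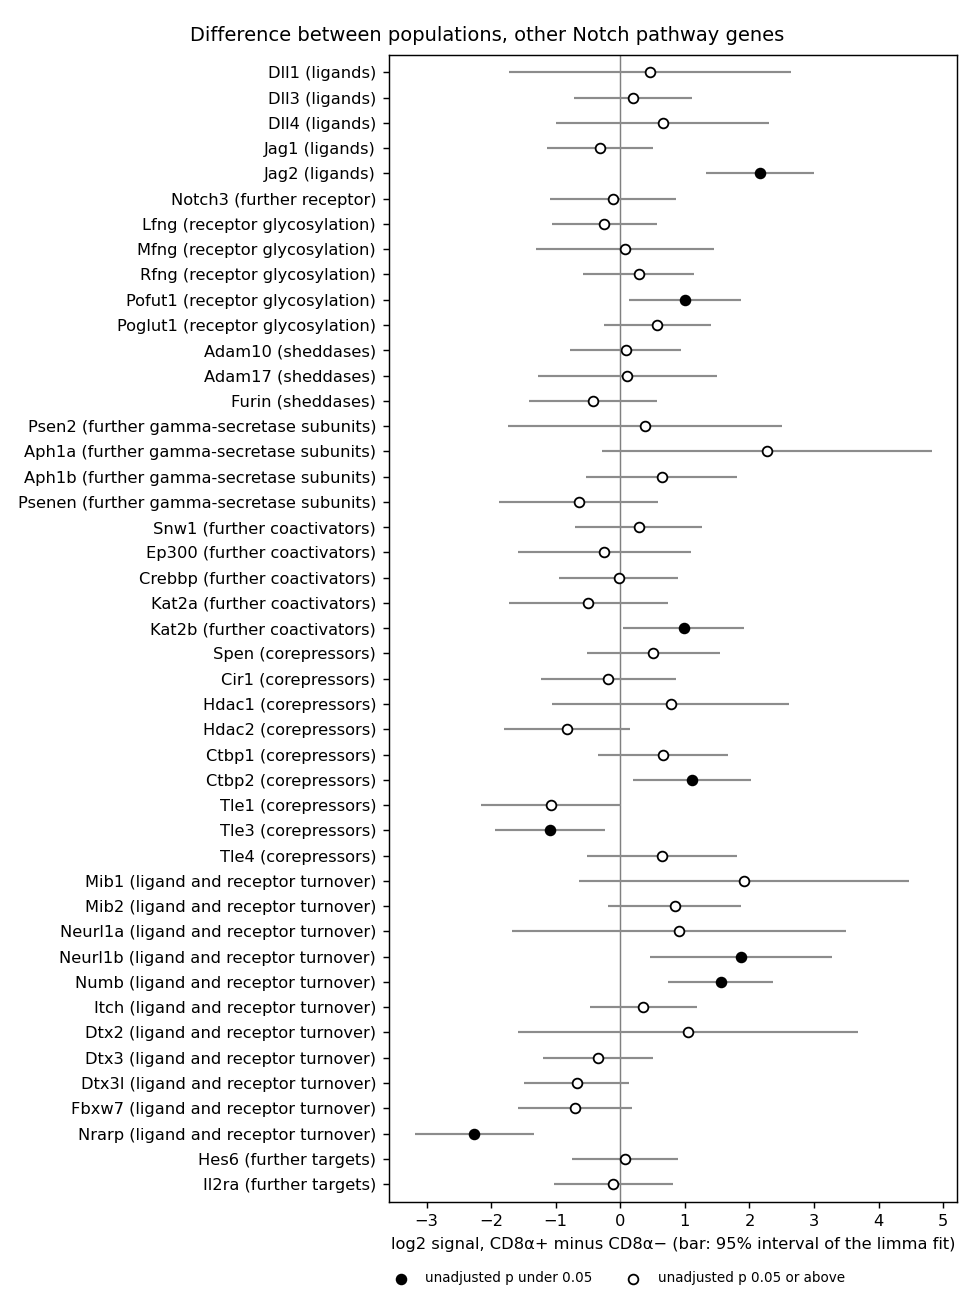
Difference in log2 signal, CD8α+ minus CD8α−, of the 45 tested pathway genes outside the members, ordered by role, with 95% intervals of the limma fit. Filled points had an unadjusted p under 0.05: Jag2, Pofut1, Kat2b, Ctbp2, Neurl1b and Numb to the right, Tle3 and Nrarp to the left.

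Set side by side, Hes1, Dtx1 on its tested probe set and Nrarp were dimmer in CD8α+ cells, while the effector Rbpj, the ligand Jag2 and the inhibitor Numb were brighter. These directions held in every alternative in which the genes could be tested, including each scaling of the arrays, although these genes were set together after their values were seen. Every alternative reuses the same 4 arrays, and the groups of these genes did not overlap. A held sign was thus largely given beforehand and is no further support for the contrast. Other targets did not all share the order of Hes1. Hes6 and Il2ra had differences near 0. Hey1, Myc and the second Dtx1 probe set, all too dim to be tested, were higher on both CD8α+ arrays. Myc was above background on only 1 array. Ptcra, a further target too dim to be tested, shared the order of Hes1 at 3.40 and 4.07 against 20.7 and 25.7. It was above background on no array. Of the tested member probe sets, 8 of 16 kept their sign in every such alternative, and those of Ncstn, Notch4 and Maml1, Notch1 on 1418634_at and Dtx4 on 1436545_at were not among them.

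**Figure D4:**
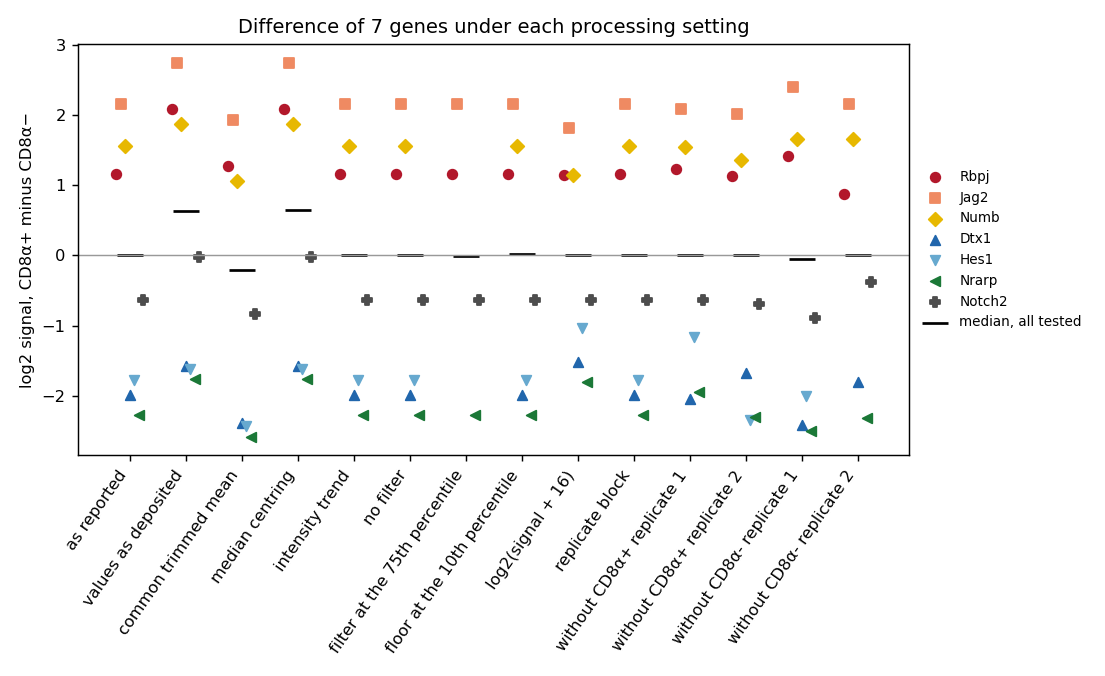
Difference in log2 signal, CD8α+ minus CD8α−, of 7 genes as reported and under the 13 alternatives, with the median of all tested probe sets as a black dash. Rbpj, Jag2 and Numb stay above 0, Dtx1, Hes1 and Nrarp below it, and Notch2 reaches -0.03 as deposited. Points are missing where a gene was too dim to be tested.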

How the data were processed

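Signals were measured on 4 arrays, grouped by the title in the labels. The authors deposited 1 linear intensity per probe set and array, a MAS5 signal per the submitters' processing notes; the series' design text names Microarray Suite 5.0 and GeneSpring. No scaling target is named in the labels or notes, and no detection calls were used. The labels' protocols and the design text differ on the RNA work (6 µg total RNA with Trizol, or 100 ng mRNA with an Ovation kit).

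Gene symbols came from the platform annotation (34945 with 1 symbol, 932 with several, 9160 with none). Deposited intensities were quantile normalized, raised to a floor of 6.99 (the mean 25th percentile) and log2 transformed. Probe sets with a mean signal of at least 23.0, the median, were tested with limma 3.58.1 in R 4.3.3 (lmFit, eBayes, two-sided, Benjamini-Hochberg). The floor can hide variation between dim signals. The fit was tested on simulated data. A gene is represented by its brightest tested probe set, leaving out names ending in _x_at where another was tested. The number of arrays limits the precision.

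The members, lists and tests were chosen with earlier results of these data known. Genes named outside the members were those with an unadjusted p under 0.05, the 2 brightest of each role, and Esam. Hey1, Myc, Ptcra, Itch and the Delta-like and Dlk ligands were named in addition, after their values were seen. Whether the replicate numbers pair the arrays is not known. Deviations of same-numbered arrays from their group means correlated at r = 0.03, which cannot decide it with 2 arrays per group. Python 3.11.15, pandas 2.3.3 and matplotlib 3.10.9 were used for tables and figures.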

Additional observations from a re-analysis of the deposited data

How the results depend on the processing

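With 2 arrays per group, each count rests on few values. Leaving out 1 array leaves a group of 1, assumed to vary like the other. No counts of member probe sets are given for such fits. The ranges of counts given below for the other pathway genes come from these fits and rest on that assumption. The share of all tested probe sets called also varied widely among these fits, so the ranges say nothing specific of the pathway. Member probe sets brighter in CD8α+ cells at unadjusted p numbered 2 as reported. They numbered 5 with median centring, 4 with an intensity trend and 4 with log2(signal + 16). Of all tested probe sets, 26.7%, 8.22% and 8.65% were brighter in these settings. Dimmer ones numbered 2 as reported, 1 with an intensity trend, 1 with no filter and 0 with the filter at the 75th percentile. Of all tested probe sets, 8.04%, 7.33% and 10.5% were dimmer in these settings. Dtx1 and Hes1 were not tested with the filter at the 75th percentile. No member probe set passed an adjusted p of 0.05 as reported. Other pathway genes brighter at unadjusted p numbered 1 to 14 (6 with all arrays), 18 with median centring and 3 with the filter at the 75th percentile. Dimmer ones numbered 1 to 9 (2 with all), 1 as deposited, 1 with median centring, 1 with the mean over probe sets of a gene, 4 with the common trimmed mean, 4 with an intensity trend, and 5 with no filter or with the filter at the 75th percentile.

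With the replicate number as a block, 8.67% of all tested probe sets were brighter and 7.43% dimmer, and 1 other gene was dimmer. Under this replicate block, the unadjusted call of Rbpj was lost on 1454896_at and gained on 1418114_at, and the block changed no other call of the members. Pofut1, Kat2b, Ctbp2 and Tle3 were no longer called, and Aph1a was among the genes that gained a call. In total 5 other pathway genes were brighter against 6 without the block, so the genes named here are not all that changed.

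The median of all probe sets was 0.63 as deposited, -0.21 with the common trimmed mean and 0.65 with median centring. As deposited, signs turned for Notch1 1418634_at (0.53), Dtx4 1436545_at (0.24), Maml1 1426769_s_at (0.58), Ncstn 1444532_at (0.023), Jag1 (0.62), Notch3 (0.0048), Lfng (0.77), Furin (0.37), Psenen (0.29), Crebbp (0.86), Dtx3l (0.29), Fbxw7 (0.30) and Il2ra (0.20). Median centring turned the same ones, to 0.53, 0.24, 0.58, 0.025, 0.62, 0.0067, 0.77, 0.37, 0.29, 0.86, 0.29, 0.30 and 0.20. The common trimmed mean turned Notch4 1456263_at (-0.056), Maml1 1452188_at (-0.0053), Ncstn 1418570_at (-0.25), Crebbp (0.048) and Hes6 (-0.065). Over the arrays left out, the differences ranged from -0.42 to 0.064 for Notch1 1418634_at, -0.030 to 1.55 for Notch4 1449146_at, -0.36 to 1.03 for Notch4 1456263_at, -0.80 to 0.63 for Dtx4 1436545_at, -0.0057 to 0.95 for Maml1 1452188_at, -0.071 to 0.19 for Ncstn 1418570_at, -0.42 to 0.33 for Ncstn 1444532_at, -0.45 to 0.20 for Notch3, -0.066 to 0.23 for Adam10, -0.25 to 0.22 for Crebbp and -0.38 to 0.15 for Il2ra. Of 22 other genes followed, 11 kept their sign throughout. Signs were also taken relative to the median of all probe sets in each setting. They then held in all 13 alternatives for Maml1 1426769_s_at, Furin, Psenen, Dtx3l and Fbxw7, against 11 before. Notch1 1418634_at moved from 10 to 12 of 13 and Jag1 from 11 to 12. Lfng moved from 11 to 10, Crebbp stayed at 8 of 13 and Ncstn 1418570_at moved from 10 to 8 of 12. The cause of these changes was not tested.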
